A study of Mus musculus with 38 samples.

Results

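The 10 genes described here encode the chains and linkers of the vascular and pericellular basement membrane, and they were taken by symbol from the 35682 genes of the series count table. They are the collagen IV chain genes Col4a1 and Col4a2, the laminin chain genes Lama4, Lama5, Lamb1, Lamb2 and Lamc1, the nidogen genes Nid1 and Nid2, and Hspg2, which encodes the heparan sulfate proteoglycan perlecan. A basement membrane is a thin sheet of matrix under endothelium and around muscle fibers. Laminins, each built of an α, a β and a γ chain, form a network at the cell surface, collagen IV chains wind into helices that form a covalently cross-linked network, and nidogens and perlecan link both. In the heart such sheets surround capillaries, cardiomyocytes and mural cells, whereas most fibroblasts lie in the interstitium without a continuous sheet of their own.

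Male C57BL/6 mice, 8 to 12 weeks old, received either vehicle (5% DMSO in saline) or the SGLT2 inhibitor empagliflozin (EMPA) at 10 mg/kg per day by mouth for 6 weeks. The Sham group (labeled SHAM) received vehicle and an open-chest operation without ischemia. The Control-AMI group (labeled Control_IR) received vehicle, 30 min of ischemia by ligation of the left anterior descending artery and 2 h of reperfusion. The EMPA-Pre-AMI group (labeled EMPA_IR) received EMPA and the same ischemia and reperfusion, and no group received EMPA without ischemia. The part of the heart below the suture was digested with collagenase. Cardiomyocytes were pelleted at low speed, endothelial cells (ECs) were sorted as CD45-, CD31+ cells, and fibroblasts as CD45-, CD31-, CD90+ cells. Each of the 38 3′ mRNA libraries came from 2 pooled hearts, with 4, 5 and 4 cardiomyocyte libraries, 4, 4 and 5 EC libraries and 4, 4 and 4 fibroblast libraries in Sham, Control-AMI and EMPA-Pre-AMI. The libraries held 1352514 to 2195308 estimated counts in ECs, 1946056 to 2821373 in fibroblasts and 2031716 to 4509284 in cardiomyocytes, of which mitochondrially encoded genes took 46.6% to 66% in the cardiomyocyte libraries and less than 15% elsewhere.

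Each population carried its own markers in Sham. All 10 endothelial markers were higher in ECs than in fibroblasts and cardiomyocytes, all 10 fibroblast markers were higher in fibroblasts than in ECs and cardiomyocytes, and all 10 cardiomyocyte markers were higher in cardiomyocytes than in both sorted populations. The cardiomyocyte pellets also held RNA of other cells. On a scale set over all 38 libraries, the 10 fibroblast markers summed to 2439 to 3558 CPM (counts scaled to a common library size) in Sham cardiomyocytes against 13093 to 18482 in Sham fibroblasts, and the 10 endothelial markers summed to 1359 to 1925 CPM in Sham cardiomyocytes against 8371 to 9406 in Sham ECs, with no marker of either list at 0. The part of this RNA in the cardiomyocyte levels of the basement membrane genes was not tested. Of 10 mural markers (smooth muscle cells and pericytes), 6 were lower and 0 higher in Sham ECs than in Sham fibroblasts at an edgeR FDR below 0.05. Among all tested genes 20.2% were lower and 17.6% higher. Against Sham cardiomyocytes, Sham fibroblasts had 3 of the 10 higher and 3 lower (22.7% and 24.5% of all tested genes). The part of mural RNA in the fibroblast levels was not tested. Among the fibroblast libraries, Sham replicate 2 stood apart, with 12.5% mitochondrial counts against at most 7.88% in the others and with 606 CPM summed over 10 leukocyte markers against 10.6 to 37.4 CPM in the others (scaled within fibroblasts).

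In Sham hearts the components divided between the populations. Lama5 was highest in ECs, and Col4a2 was higher in ECs than in the other two populations, whereas Lamb1, Lamc1, Nid1 and Lama4 were highest in fibroblasts. Of the 10 genes, edgeR's quasi-likelihood test with Benjamini-Hochberg adjustment (FDR below 0.05, the rule for every call below unless stated) called 2 higher and 5 lower in ECs than in fibroblasts, with 17.6% of 12085 tested genes higher and 20.2% lower. Against cardiomyocytes, 5 of 10 were higher and 3 lower in ECs, with 24.8% of all tested genes higher and 28.1% lower, and 7 of 10 were higher and 1 lower in fibroblasts, with 22.7% and 24.5% of all tested genes. The median log2 difference of the 10 genes was −0.42 for ECs against fibroblasts, 0.63 for ECs against cardiomyocytes and 1.20 for fibroblasts against cardiomyocytes, beside medians of −0.04, 0.04 and 0.09 over all genes. These are levels in bulk libraries, in which fewer cells of a type and less RNA per cell cannot be told apart. Levels are compared between populations within a gene, because 3′ priming can differ from gene to gene. The populations were isolated from the same digested hearts, and the fit across populations treated their libraries as independent. Comparisons with cardiomyocytes also rest on the scaling over all 38 libraries, because a large part of the cardiomyocyte counts was mitochondrial. The Sham EC libraries shared no run of the labels' sample numbering with the Sham cardiomyocyte or Sham fibroblast libraries. A fit with a term for this run takes the run effect from other groups, and cannot separate run from population in these comparisons.

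Lama5 encodes a laminin α chain, the α5 chain of laminin-511 found under arterial and quiescent capillary endothelium. Among the genes described here, Lama5 had the largest excess in Sham ECs over Sham fibroblasts. Against Sham cardiomyocytes, Lama5 had a smaller EC excess than Hspg2 and Nid2. Its level on the common scale was 13.9, 20.4, 21.1 and 16.1 CPM in the Sham EC libraries, 0.255, 3.53, 0.591 and 1.61 CPM in fibroblasts and 7.07, 9.30, 9.38 and 9.19 CPM in cardiomyocytes. The 3 ranges did not overlap, and the fibroblast values rest on 1 to 12 counts per library. The EC level exceeded the fibroblast level by 3.56 on the log2 scale (SE 0.473, edgeR FDR = 5.29e-08) and the cardiomyocyte level by 1.03 (SE 0.420, FDR = 0.0363), a call that was lost with a term for the numbering run of the samples (0.48, FDR = 0.540) and without any 1 of the 4 Sham cardiomyocyte libraries or Sham EC replicate 2 or 3 (FDR up to 0.0889). Lama4, the α4 chain that pairs with the β1 and γ1 chains in laminin-411 of vessels and muscle, had 289, 306, 349.99 and 272 CPM in Sham ECs and 666, 337, 526 and 515 CPM in Sham fibroblasts, ranges that overlapped in 1 fibroblast library. The EC level was lower by 0.75 on the log2 scale (SE 0.253, FDR = 0.0165), and without fibroblast replicate 1 the adjusted p was 0.0763. Lama4 in Sham cardiomyocytes, at 204 to 272 CPM, did not pass the test against ECs (log2 difference 0.37, 95% interval −0.14 to 0.89), but passed with the run term (0.80, FDR = 0.0210).

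The β1 and γ1 laminin chains and nidogen 1 shared a fibroblast pattern. Lamb1, the β1 chain, had 957, 651, 963 and 933 CPM in Sham fibroblasts, 166, 143, 153 and 132 CPM in ECs and 282, 209.5, 253 and 306 CPM in cardiomyocytes. Fibroblasts therefore held 5.90-fold more than ECs (log2 difference of ECs from fibroblasts −2.56, SE 0.270, FDR = 3.18e-10) and 3.34-fold more than cardiomyocytes. Lamc1, the γ1 chain that nearly every laminin of the heart contains, had 959.8, 319.5, 478 and 674 CPM in fibroblasts, 117, 68.6, 64.4 and 58.2 CPM in ECs and 297, 195, 225 and 288 CPM in cardiomyocytes. The fold of fibroblasts over ECs was 7.88 (log2 difference of ECs from fibroblasts −2.98, SE 0.412, FDR = 3.34e-07). Nid1, which bridges the laminin γ1 chain and collagen IV, had 1282, 545, 999 and 726 CPM in fibroblasts, 163, 179, 138 and 167 CPM in ECs and 287, 269, 301 and 339 CPM in cardiomyocytes. For these 3 genes every Sham fibroblast library lay above every Sham EC and cardiomyocyte library. On this common scale the EC libraries were the lowest, but the order of ECs and cardiomyocytes depends on the scaling. With CPM scaled within each population, Nid1 was at 219 to 279 CPM in Sham ECs and 119 to 150 CPM in Sham cardiomyocytes. The Nid1 difference between ECs and cardiomyocytes did not pass the test (log2 difference −0.89, 95% interval −1.67 to −0.10, FDR = 0.0512), and with the run term Lamb1 and Lamc1 were not called between these populations either (FDR 0.778 and 0.0933).

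The remaining chains were spread more evenly. Lamb2, the β2 chain found at synapses and in mature vessel walls, was at 131 to 176 CPM in Sham ECs, 176 to 242 CPM in fibroblasts and 209.5 to 249 CPM in cardiomyocytes. It was lower in ECs than in fibroblasts by 0.53 on the log2 scale (SE 0.205, FDR = 0.0385) and than in cardiomyocytes by 0.67 (SE 0.206, FDR = 0.00629), and the test between fibroblasts and cardiomyocytes was not passed (difference −0.14, 95% interval −0.56 to 0.28). The call against fibroblasts was lost in 6 of 38 fits that each left out 1 library, those without Sham EC replicate 1, 3 or 4 or Sham fibroblast replicate 1, 2 or 3 (FDR up to 0.112). It was also lost without a filter on low counts, with a term for replicate number and with the run term (FDR up to 0.663). The call against cardiomyocytes was lost with the run term (FDR = 0.665). Nid2, the second nidogen, was at 10.6 to 20.8 CPM in ECs, 10.7 to 33 CPM in fibroblasts and 1.93 to 7.47 CPM in cardiomyocytes, and both sorted populations exceeded cardiomyocytes, with folds of 3.01 (FDR = 0.00366, and 0.0997 with the run term) and 3.72 (FDR = 6.70e-04). Hspg2 was at 302 to 496 CPM in ECs, 276 to 411 CPM in fibroblasts and 91.9 to 134 CPM in cardiomyocytes, with folds over cardiomyocytes of 3.71 and 2.96. The test between ECs and fibroblasts called neither Nid2 (log2 difference −0.30, 95% interval −1.08 to 0.47) nor Hspg2 (0.32, 95% interval −0.25 to 0.90).

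The collagen IV chain genes were expressed in every population. Col4a1 had 749, 699, 761 and 641 CPM in Sham ECs, 673, 492, 647 and 718 CPM in Sham fibroblasts and 301 to 368 CPM in cardiomyocytes, so that ECs and fibroblasts overlapped (log2 difference 0.17, 95% interval −0.21 to 0.55) and both lay above cardiomyocytes. Col4a2 had 397, 305, 338 and 294 CPM in ECs, 217, 196, 197 and 201 CPM in fibroblasts and 166 to 194 CPM in cardiomyocytes. The EC level of Col4a2 was 1.64-fold that of fibroblasts (log2 difference 0.72, SE 0.170, FDR = 6.95e-04) without overlap. The log2 ratio of Col4a1 to Col4a2 within a Sham library was 1.10 ± 0.13 in ECs, 1.63 ± 0.22 in fibroblasts and 0.88 ± 0.06 in cardiomyocytes (mean ± SD, n = 4 each). This ratio compares populations and is no measure of chain stoichiometry.

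**Figure D1:**
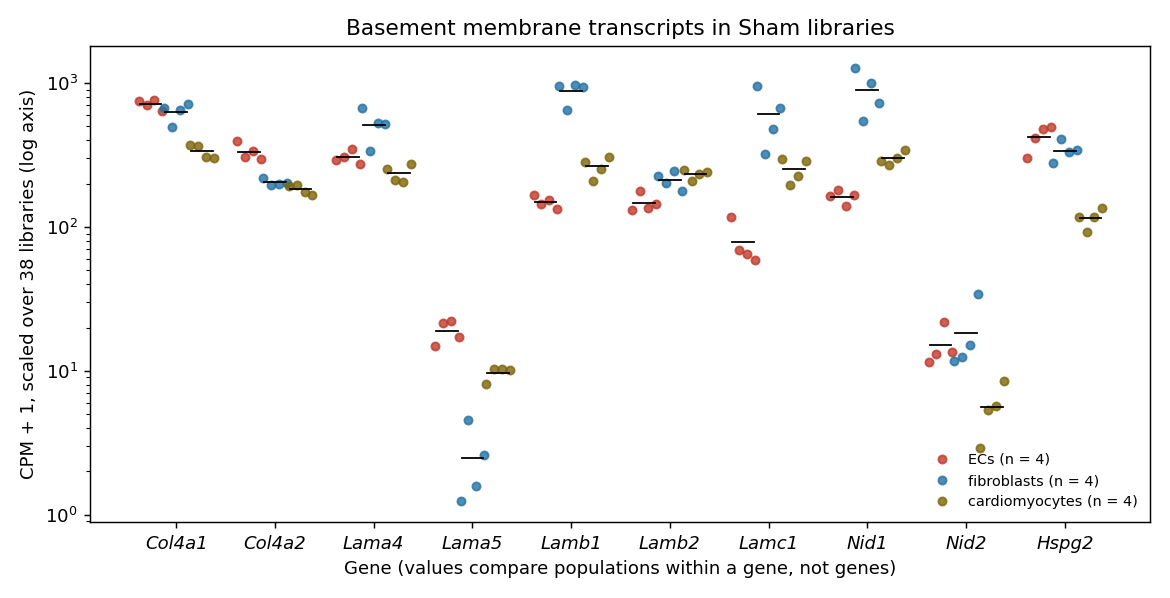
Level of each basement membrane gene in the Sham libraries of ECs, fibroblasts and cardiomyocytes (4 libraries each) as CPM plus 1 on a log axis, scaled over all 38 libraries, with points for libraries and lines for means. Lama5 was highest in ECs and lowest in fibroblasts, whereas the fibroblast points of Lamb1, Lamc1 and Nid1 lay above all others.

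Related genes were counted in the same libraries, in which 17.6% of all tested genes were higher and 20.2% lower in Sham ECs than in Sham fibroblasts. Of 17 tested genes for other basement membrane parts, 5 were higher and 11 lower in Sham ECs than in Sham fibroblasts (median log2 difference −1.43 beside −0.04 over all genes). The lower genes with the smallest FDR were the matrix genes Fbln1 (−5.03, SE 0.444), Smoc2 (−5.91, SE 0.548), Col15a1 (−3.62, SE 0.374) and Lama2, the α2 chain of the muscle laminin (−5.05, SE 0.511). Of 11 tested genes for collagen folding, secretion and cross-linking, 2 were higher and 5 lower, among them the lysyl oxidase-like enzyme Loxl2 (−3.82, SE 0.412) and the prolyl hydroxylase subunit P4hb (−1.21, SE 0.179) below, and the lysyl hydroxylase Plod1 (1.06, SE 0.221) and peroxidasin Pxdn (1.03, SE 0.228), which forms sulfilimine cross-links in collagen IV, above. Of 12 receptor genes 6 were higher and 6 lower. The basal cell adhesion molecule Bcam, which binds laminin α5, was higher by 2.93 (SE 0.305), the laminin receptor subunit Itga6 by 4.98 (SE 0.486) and the collagen receptor subunit Itga1 by 2.04 (SE 0.242), whereas the collagen receptor kinase Ddr2 was lower by 4.47 on the log2 scale in ECs (SE 0.522). Against cardiomyocytes, ECs had 5 higher and 7 lower of 17 other basement membrane genes and 2 higher and 1 lower of 11 folding genes. Of 12 receptors 4 were higher and 5 lower, and of all tested genes 24.8% were higher and 28.1% lower. Fibroblasts against cardiomyocytes had 8 higher and 2 lower, 9 higher and 0 lower, and 1 higher and 2 lower in these lists. Of all tested genes 22.7% were higher and 24.5% lower.

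After ischemia and reperfusion, fibroblasts held more collagen IV mRNA and no other member passed the test in them. Here and below, CPM are scaled within a population. Col4a2 had 319.8, 293, 289 and 298 CPM in the Sham fibroblast libraries, 457, 539.8, 489 and 589 CPM in Control-AMI and 487, 419, 509.6 and 469 CPM in EMPA-Pre-AMI. Every library of both infarct groups lay above every Sham library. Col4a2 was higher in Control-AMI than in Sham by 0.79 on the log2 scale (SE 0.145, 1.73-fold, FDR = 0.00469). Col4a1 had 991, 735, 950.2 and 1063 CPM in Sham, 1486, 1609.7, 1464 and 1971 CPM in Control-AMI and 1552, 1325, 1433 and 1847 CPM in EMPA-Pre-AMI, again without overlap between Sham and either infarct group. It was higher in Control-AMI by 0.80 (SE 0.174, 1.75-fold, FDR = 0.0144), with a difference of 0.71 and an adjusted p of 0.0602 without Sham replicate 2, which had the lowest Col4a1 level of all fibroblast libraries and stood apart in leukocyte markers and mitochondrial counts. The collagen IV genes were thus 2 of 9 members called higher and 0 lower (Lama5 did not pass the filter on low counts), with 2.99% of 10691 tested genes higher and 1.17% lower. The median change of the 9 members was 0.14, beside −0.03 over all genes. Numbering run and group largely coincided here, with 3 of 4 Sham libraries in run 1 and 3 of 4 Control-AMI libraries in run 4. Both collagen IV calls held under all 9 alternatives that kept every library, the run term among them.

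With EMPA, the collagen IV genes were also higher in fibroblasts than in Sham. In EMPA-Pre-AMI against Sham, Col4a1 was higher by 0.72 (SE 0.174, FDR = 0.0245) and Col4a2 by 0.65 (SE 0.145, FDR = 0.0154), 2 of 9 members higher and 0 lower with 3.65% of all tested genes higher and 1.46% lower. This comparison shares its Sham libraries with the one above. Neither gene was called in that comparison without Sham replicate 2 (FDR 0.0939 and 0.0513) or without Sham replicate 3 (0.0634 and 0.0530), and Col4a1 also missed the threshold without EMPA-Pre-AMI replicate 4 (FDR = 0.0717). Between EMPA-Pre-AMI and Control-AMI, the log2 difference was −0.09 for Col4a1 (95% interval −0.48 to 0.31) and −0.14 for Col4a2 (−0.46 to 0.19). In that comparison edgeR called 0 of 9 members and 0 genes in all (0% higher and 0% lower), with 170 genes and 0 members at an unadjusted p under 0.05, and DESeq2 also called 0 genes.

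The other fibroblast members varied widely within groups. Lamc1 was at 477 to 1413 CPM in Sham, 653 to 1053 in Control-AMI and 695 to 1698 in EMPA-Pre-AMI, and its change in Control-AMI was −0.02 with a 95% interval of −0.72 to 0.68. Nid1 was at 815 to 1886, 1108 to 2283 and 1449.5 to 1725 CPM (change 0.31, interval −0.25 to 0.87). Lamb1 was at 973 to 1414, 1024 to 1534 and 1032 to 1527 CPM (change 0.05, interval −0.37 to 0.46). Lama4, Lamb2, Nid2 and Hspg2 had changes between −0.27 and 0.25 in Control-AMI, and all of their groups overlapped. Lama5 stayed at 1 to 12 counts per library in all 12 fibroblast libraries.

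**Figure D2:**
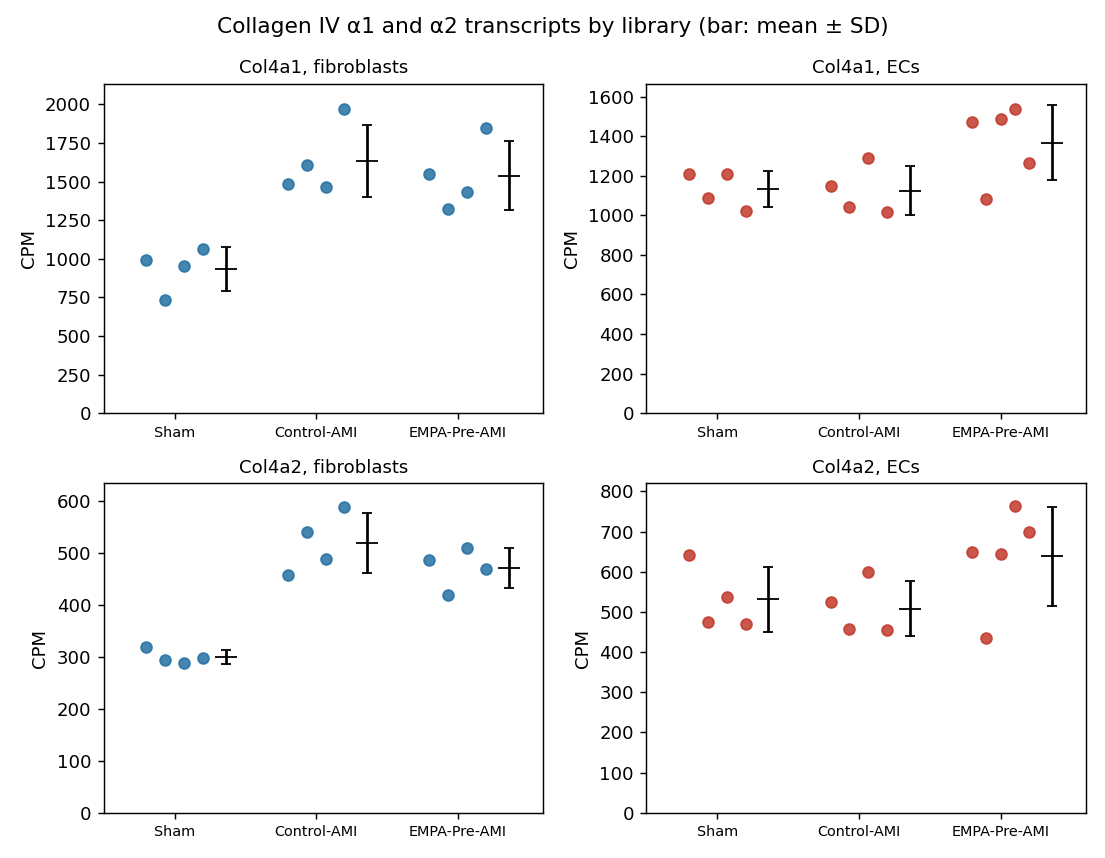
CPM of Col4a1 (top) and Col4a2 (bottom) in each fibroblast (left) and EC (right) library by group, with points for libraries and bars for mean ± SD. In fibroblasts all infarct libraries lay above all Sham libraries for both genes, whereas the EC groups overlapped.

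None of the 15 tested genes for other basement membrane parts, 11 for collagen folding or 10 for receptors passed the test in the fibroblast comparison of Control-AMI with Sham, with medians of 0.23, −0.12 and 0.21. The same held for EMPA-Pre-AMI against Control-AMI and against Sham. Markers of other cells were also measured in the fibroblast libraries. The 10 mural markers, of smooth muscle cells and pericytes, summed to 1069 to 3056 CPM in Sham fibroblasts, 955 to 6320 in Control-AMI and 1677 to 3396 in EMPA-Pre-AMI, with none at 0. Tagln, an actin-binding protein of smooth muscle and activated fibroblasts, was the 1 mural marker of 10 called, higher by 2.45 in Control-AMI (SE 0.342) and by 2.91 in EMPA-Pre-AMI (SE 0.343) against Sham. The 10 endothelial markers summed to 199.8 to 687 CPM in Sham, 514 to 825 in Control-AMI and 292 to 888 in EMPA-Pre-AMI with 0 of 9 tested called, and up to 5 of the 10 were at 0 in a Sham library. Of the 10 leukocyte markers 3 were tested and 0 called, with a median change of −2.81 in Control-AMI against Sham, and up to 6 of the 10 were at 0 in a library. The part of any of these in the collagen IV difference was not tested.

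Collagen IV did not show this change in ECs. Col4a1 had 1210.5, 1089.6, 1209 and 1024 CPM in the Sham EC libraries, 1147, 1044, 1289 and 1015 CPM in Control-AMI and 1471, 1082, 1487, 1537 and 1263 CPM in EMPA-Pre-AMI. All 3 groups overlapped, with a log2 change of −0.01 in Control-AMI against Sham (95% interval −0.34 to 0.31) and 0.28 in EMPA-Pre-AMI against Control-AMI (−0.03 to 0.59). Col4a2 had 642, 476, 537 and 469.9 CPM in Sham, 525, 456, 598 and 454 CPM in Control-AMI and 648, 436, 643, 764 and 699.6 CPM in EMPA-Pre-AMI, with changes of −0.06 (−0.44 to 0.31) and 0.33 (−0.03 to 0.68). The difference between the EC and the fibroblast change in Control-AMI against Sham was −0.84 for Col4a2 (SE 0.240, FDR = 0.0393) and −0.81 for Col4a1 (SE 0.261, FDR = 0.0851). Col4a2 was 1 of 10 members called lower and 0 were called higher in this interaction test, with 0.745% of 12085 genes lower and 2.47% higher. The Col4a2 call was lost under 4 of the alternatives tried and in 11 of 38 fits without a library, with adjusted p-values up to 0.105. These were the fits without EC Sham replicate 1 or 3, EC Control-AMI replicate 1, 2 or 4, fibroblast Sham replicate 2, 3 or 4, or fibroblast Control-AMI replicate 2, 3 or 4. In the same test for EMPA-Pre-AMI against Control-AMI, 0 of 10 members were called (0.0331% of all genes higher and 2.01% lower), with 2 members at an unadjusted p under 0.05 and 0 called by DESeq2.

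The collagen IV genes lie head to head on mouse chromosome 8 (GRCm39), Col4a1 on the minus strand at chr8:11248423-11362826 and Col4a2 on the plus strand at chr8:11362471-11499287, so that their annotated 5′ ends overlap. The promoter table from RefSeq (built on GRCm38.p6, and placed here on GRCm39 by exact match) holds 7 of the 10 members, and each window matched GRCm39 at 1 position. Its transcription starts put the first base of Col4a1 at position 11362826 and that of Col4a2 at position 11362805, 22 bases of shared sequence on opposite strands. This stretch and the nearest boxes on either side are shown because both genes changed together in fibroblasts. Capitals mark GC boxes (GGGCGG) and CCAAT boxes (CCAAT) read on both strands, which share no base here.
Col4a1 and Col4a2 starts, chr8:11362805-11362826, plus strand: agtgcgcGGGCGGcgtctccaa
Col4a2, chr8:11362753-11362782, plus strand: cgcgCCGCCCgaggagctccCCAATttgtt
Col4a1, chr8:11362954-11362983, minus strand: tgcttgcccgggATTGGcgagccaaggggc
The Col4a2 boxes began 48 and 32 bases before its start and the Col4a1 CCAAT box 145 bases before its start. All 250 bases upstream of either start lie in annotated exons of the gene pair.

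The within-group correlation of the collagen IV genes was computed in each population, and its difference between populations was not tested. The deviations of Col4a1 and Col4a2 from their group means correlated with r = 0.85 over the 13 EC libraries and r = 0.80 over the 13 cardiomyocyte libraries, but with r = 0.54 over the 12 fibroblast libraries, where Col4a1 correlated more with Nid2 (r = 0.70). The genes of a library share its depth and scaling. Only Ckap2 (r = 0.90), Plcl2 and Gpr108 ranked above Col4a2 among the genes most like Col4a1 in ECs, and Zfp985 and Fhl3 (r = 0.84 and 0.83) followed. Over the log2 CPM of all 38 libraries, which mostly reflects the population, the genes most like Col4a1 were Ifngr1 (r = 0.93), Ccnl1, Nfkb1, Tpm4 and Lima1, and Col4a2 ranked 46th at r = 0.86. The genes most like Lama4 over the 38 libraries were Zeb1 (r = 0.94), Cd34, Thsd7a, Golim4 and Ecm2, with Nid1 the nearest member at r = 0.90, and in EC deviations Disp1 (r = 0.91), Alkbh7, Prmt3, Nsun5 and Ccdc66, with Lamb1 the nearest member at r = 0.81.

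In ECs the change after ischemia and reperfusion lay in Lamc1 and Nid1, with Lamb1 just outside the threshold. Lamc1 had 189, 107, 102 and 93.0 CPM in the Sham libraries, 578, 181, 191 and 431 CPM in Control-AMI and 142, 168, 139.7, 153 and 153 CPM in EMPA-Pre-AMI. Control-AMI replicates 1 and 4 stood far above all other EC libraries, and replicate 2 lay within the Sham range. Lamc1 was higher in Control-AMI than in Sham by 1.49 on the log2 scale (SE 0.354, 2.82-fold, FDR = 0.0254). Nid1 had 264, 279, 219 and 267 CPM in Sham, 724, 274, 398 and 615 CPM in Control-AMI and 262, 331, 252, 264 and 264 CPM in EMPA-Pre-AMI, with the same libraries high and replicate 2 again inside the Sham range. It was higher in Control-AMI by 0.97 (SE 0.218, 1.96-fold, FDR = 0.0107). Lamb1 had 268, 223, 243 and 210.3 CPM in Sham, 696, 220.03, 306 and 479.99 CPM in Control-AMI and 206, 181, 267, 196 and 205 CPM in EMPA-Pre-AMI, and its difference of 0.85 (SE 0.264) did not pass (FDR = 0.0685). In all, 2 of 10 members were called higher and 0 lower, with 4.09% of 10438 tested genes higher and 2.47% lower, and the median change of the 10 members was −0.00124 beside −0.02 over all genes.

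With EMPA these genes lay near their Sham level. Against Control-AMI, Nid1 was lower by 0.87 on the log2 scale (SE 0.205, 1.83-fold, FDR = 0.0222) and Lamb1 by 1.01 (SE 0.248, 2.02-fold, FDR = 0.0408). Lamc1 had no overlap between the groups, and its log2 difference of −1.20 (SE 0.328) did not pass (FDR = 0.0922). The counts were 2 of 10 members lower and 0 higher, with 2.28% of all tested genes lower and 0.345% higher. Against Sham, edgeR called 0 of 10 members (2.08% of all tested genes higher and 0.632% lower), with 0 members at an unadjusted p under 0.05 and 0 called by DESeq2. The differences in that comparison were 0.30 for Lamc1 (95% interval −0.45 to 1.05), 0.10 for Nid1 (−0.37 to 0.56) and −0.16 for Lamb1 (−0.72 to 0.39). Both comparisons share the EMPA-Pre-AMI libraries, and the Control-AMI libraries are shared with the comparison above.

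**Figure D3:**
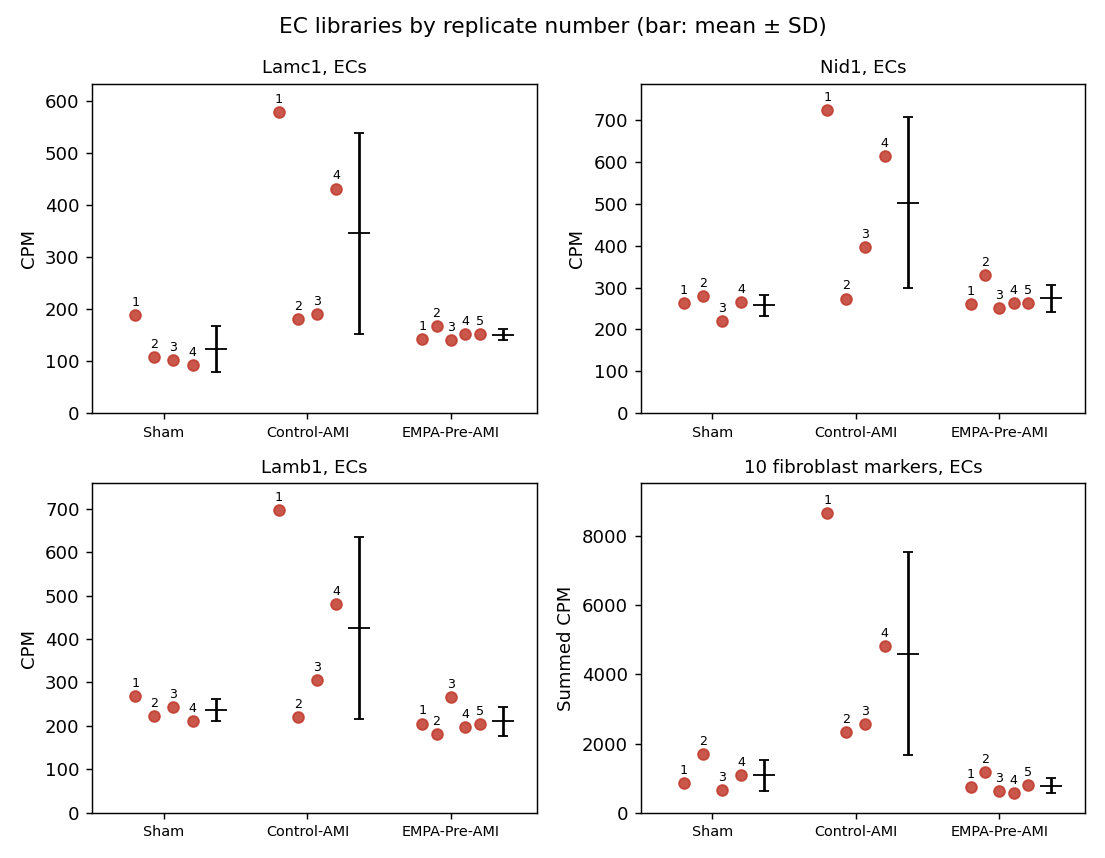
CPM of Lamc1, Nid1 and Lamb1 and the summed CPM of 10 fibroblast markers in each EC library, numbered by replicate, with bars for mean ± SD. Control-AMI replicates 1 and 4 were the highest libraries in all 4 panels.

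Fibroblast markers moved with these genes in the EC libraries. The 10 fibroblast markers (Col1a1, Col1a2, Col3a1, Dcn, Lum, Pdgfra, Tcf21, Thy1, Dpt and Mfap5) summed to 865, 1710, 660.4 and 1091 CPM in Sham, 8648, 2332, 2570 and 4817 CPM in Control-AMI and 748, 1168, 644, 586 and 791 CPM in EMPA-Pre-AMI. Every Control-AMI library lay above every other EC library, and replicates 1 and 4 were again the highest. Of 9 fibroblast markers tested, 8 were higher in Control-AMI than in Sham and 9 were lower in EMPA-Pre-AMI than in Control-AMI, with at most 1 of 10 at 0 in any EC library. The 10 endothelial markers summed to 13529 to 14936 CPM in Sham, 7124 to 9962 in Control-AMI and 10058 to 14819 in EMPA-Pre-AMI. Kdr and Fabp4 were lower in Control-AMI than in Sham, and Cdh5 and Fabp4 were higher in EMPA-Pre-AMI than in Control-AMI. The 10 mural markers, at 668 to 1099, 409 to 944 and 309 to 829 CPM, had 0 of 10 called in either comparison, with a median log2 change of 0.00296 in Control-AMI against Sham and −0.63 in EMPA-Pre-AMI against Control-AMI. The 10 leukocyte markers summed to 14.1 to 39.5 CPM in Sham, 36.7 to 738 in Control-AMI and 20.5 to 139 in EMPA-Pre-AMI, with 0 of 5 tested called. In a fit with a term for each library's median fibroblast marker level, none of these 3 genes was called in either comparison. The Control-AMI difference from Sham was −0.01 for Lamc1 (SE 0.489, FDR = 0.998). It was −0.26 for Nid1 (SE 0.297, FDR = 0.914) and −0.33 for Lamb1 (SE 0.398, FDR = 0.922). The difference of EMPA-Pre-AMI from Control-AMI in that fit was 0.39 for Lamc1 (SE 0.497), 0.43 for Nid1 (SE 0.307) and 0.24 for Lamb1 (SE 0.409). The FDR was 0.9997 for each. Every Control-AMI library also lay above every other EC library in this median level. This fit therefore cannot separate the marker level from the group. In a fit with a term for the median mural marker level instead, the EMPA differences were −0.66 for Lamb1 (FDR = 0.385), −0.51 for Nid1 (FDR = 0.348) and −0.64 for Lamc1 (FDR = 0.438), none of them called. Against Sham, Lamc1 (1.38), Nid1 (0.91) and Lamb1 (0.77) were then all called, with FDR of 0.00149, 0.00202 and 0.0450.

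Control-AMI replicates 1 and 4 also carried sample numbers from another run of the labels' numbering, which held no Sham or EMPA-Pre-AMI EC library, and what a run stands for is not given. The study's methods state that all samples went through library preparation and sequencing together. Within the numbering run that held 3 Sham, 2 Control-AMI and 3 EMPA-Pre-AMI EC libraries, Lamc1 was higher in Control-AMI by 0.89 (SE 0.177, FDR = 0.0142), Nid1 by 0.40 (SE 0.195, FDR = 0.328) and Lamb1 by 0.23 (SE 0.199, FDR = 0.617). The differences of EMPA-Pre-AMI from Control-AMI in that run were −0.33, −0.27 and −0.29 (FDR = 0.998 for each). Its Control-AMI libraries were replicate 2 and replicate 3, the library high in leukocyte markers and mitochondrial counts. For the remaining Control-AMI libraries, run and group cannot be told apart. Single libraries also decided calls. Lamc1 was not called against Sham without Control-AMI replicate 4 or Sham replicate 2, 3 or 4 (FDR up to 0.0838), whereas Nid1 was called against Sham in all 13 fits that each left out 1 EC library (FDR up to 0.0457). For EMPA-Pre-AMI against Control-AMI, Lamb1 and Nid1 were both lost when replicate 1 or 4 of Control-AMI, or replicate 1, 4 or 5 of EMPA-Pre-AMI, was left out, Lamb1 also without Sham replicate 1 or 2 or the EMPA library numbered 2, and Nid1 also without EMPA-Pre-AMI replicate 3 (FDR up to 0.137 for Lamb1 and 0.110 for Nid1). Without Control-AMI replicate 2 or 3, Lamb1 passed against Sham and Lamc1 passed for EMPA, so that all 3 genes were called in both comparisons.

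The deviations of Lamb1, Lamc1 and Nid1 from their group means ran together over the 13 EC libraries, with r between 0.79 and 0.83. Of these, the promoter table holds Lamb1 and Nid1. The stretches with their boxes nearest to each other are shown because both genes were lower with EMPA, with GC and CCAAT boxes in capitals as above.
Lamb1, chr12:31315201-31315230, plus strand: ctgtcctCCGCCCcctCCGCCCccgctctc
Nid1, chr13:13612096-13612125, plus strand: ATTGGtagacgggacaggcggggtGGGCGG
The Lamb1 GC boxes began 84 and 75 bases before its RefSeq start, and the Nid1 CCAAT and GC boxes 91 and 67 bases before its RefSeq start. All 250 bases upstream of this Lamb1 start and 116 of the 250 upstream of this Nid1 start lie in annotated exons. Both stretches lie within the annotated genes, which begin at positions 31315030 (Lamb1) and 13612071 (Nid1). Over the 250 bases upstream of the start, a GC box was present in 5 of the 7 members in the table and in 32.7% of 32851 windows of the same length, and a CCAAT box in 4 of 7 and in 33.8%. TATAAA (12.4% of windows), the AP-1 site TGACTCA (4.46%) and the hypoxia response core ACGTG (16.6%) were found in 0 of 7. These letters describe the windows only.

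The other EC members did not pass the test in any comparison of the EC groups. Lama4 had 468, 477, 556 and 434 CPM in Sham, 712, 381, 476 and 502 CPM in Control-AMI and 432, 347, 448, 303 and 430 CPM in EMPA-Pre-AMI, with changes of 0.10 in Control-AMI (95% interval −0.29 to 0.49) and −0.40 with EMPA against Control-AMI (−0.77 to −0.03, FDR = 0.285). Control-AMI replicate 1 was again the highest. Lama5 was at 22.4 to 33.6, 18.1 to 36.8 and 14.1 to 41.3 CPM (26 to 73 counts per library), with a change of 0.01 in Control-AMI (−0.65 to 0.66). Hspg2 was at 488 to 793, 405 to 806 and 347 to 737 CPM (change −0.25, interval −0.78 to 0.28). Lamb2 and Nid2 had changes of −0.02 and −0.01, and their groups overlapped. The log2 ratio of Lamb1 to Lamb2 within a library was 0.02 ± 0.30 in Sham ECs (n = 4), 0.78 ± 0.60 in Control-AMI (n = 4) and −0.03 ± 0.28 in EMPA-Pre-AMI (n = 5), beside 2.05 ± 0.29 in Sham fibroblasts. The ratio of Nid1 to Nid2 was 3.55 ± 0.56, 4.44 ± 0.98 and 3.33 ± 0.44 in the same EC groups, beside 5.75 ± 1.02 in Sham fibroblasts. The Col4a1 to Col4a2 ratio kept to 1.10 ± 0.13, 1.15 ± 0.04 and 1.11 ± 0.18 in these groups, and in fibroblasts to 1.63 ± 0.22, 1.65 ± 0.08 and 1.70 ± 0.20.

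Of 14 tested genes for other basement membrane parts, 5 were higher in Control-AMI ECs than in Sham ECs and 0 lower (median 0.54 beside −0.02 over all genes). Of all tested genes 4.09% were higher and 2.47% lower. Smoc2 was higher by 3.28 (SE 0.603, FDR = 0.00922), Fbln1 by 2.77 (SE 0.540, FDR = 0.0105), Lama2 by 2.73 (SE 0.662, FDR = 0.0337) and Fbln2 by 1.01 (SE 0.258, FDR = 0.0272), and Col15a1 was the remaining gene. The same 5 genes were lower in EMPA-Pre-AMI than in Control-AMI and 0 were higher, with 2.28% of all tested genes lower and 0.345% higher. All 5 were among the 11 genes of this list that were lower in Sham ECs than in Sham fibroblasts. Of 11 collagen folding genes, the lysyl hydroxylase Plod2 was called higher in Control-AMI (1.17, SE 0.244, FDR = 0.00532) and also in EMPA-Pre-AMI against Sham (1.37, SE 0.235, FDR = 0.00134). Loxl2 was lower in EMPA-Pre-AMI than in Control-AMI by 1.82 (SE 0.444, FDR = 0.0460). Of 11 receptors, the collagen receptor kinases Ddr1 (1.32, SE 0.342) and Ddr2 (2.65, SE 0.534) were higher in Control-AMI than in Sham, and both were lower in EMPA-Pre-AMI than in Control-AMI (−1.52 and −2.89).

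In cardiomyocytes no member was called at an FDR of 0.05. In Control-AMI against Sham, edgeR called 0 of 9 members (Nid2, with 0 to 13 counts per library, did not pass the filter), with 0.0655% of 9167 tested genes higher and 0% lower, 0 members at an unadjusted p under 0.05 and 0 called by DESeq2. The changes lay between 0.08 and 0.42, the latter for Col4a1 (95% interval −0.09 to 0.93), with a median of 0.14 beside 0.01 over all genes. In EMPA-Pre-AMI against Control-AMI, edgeR called 0 of 9 at an FDR of 0.05 (0.0109% of all genes higher and 0.0109% lower), with 4 members at an unadjusted p under 0.05 and 4 called by DESeq2. At an FDR of 0.1, the level the study applied to this comparison, 4 of 9 members were lower and 0 higher, with 5.38% of all tested genes lower and 5.33% higher. These were Lama4 (−1.11, SE 0.274, FDR = 0.0571), Lamb1 (−1.03, SE 0.271, FDR = 0.0571), Lamc1 (−1.38, SE 0.397, FDR = 0.0667) and Nid1 (−1.53, SE 0.506, FDR = 0.0959). In EMPA-Pre-AMI against Sham, 0 of 9 were called (0.305% of all genes higher and 0.0327% lower), with 4 members at an unadjusted p under 0.05 and 0 called by DESeq2.

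The cardiomyocyte libraries spread widely for these 4 genes. Nid1 had 126, 119, 132 and 150.3 CPM in Sham, 99.3, 133, 135, 195 and 215 CPM in Control-AMI and 37.1, 47.2, 9.05 and 121 CPM in EMPA-Pre-AMI. Lamc1 had 130.1, 86.4, 98.5 and 128 CPM in Sham, 81.0, 99.5, 99.8, 182 and 149.8 CPM in Control-AMI and 35.0, 63.5, 12.2 and 78.5 CPM in EMPA-Pre-AMI. For both genes EMPA-Pre-AMI replicate 3 was the lowest of all 13 libraries and replicate 4 the highest of its group. The 10 fibroblast markers summed to 1462, 1082, 1328 and 1575 CPM in Sham, 1044, 1426, 885, 2085 and 1893 CPM in Control-AMI and 396, 1235, 209 and 1192 CPM in EMPA-Pre-AMI, with replicate 3 again the lowest and at most 1 marker of 10 at 0 in any library. The median change of the 9 tested fibroblast markers was −1.10 in EMPA-Pre-AMI against Control-AMI with 0 called at an FDR of 0.05, beside −0.01 over all genes. Their part in the change of the 4 genes was not tested. Without EMPA-Pre-AMI replicate 3, or Control-AMI replicate 4 or 5, 0 of the 4 genes stayed below an FDR of 0.1. Without EMPA-Pre-AMI replicate 4 all 4 passed an FDR of 0.05 against both Control-AMI and Sham, with Nid1 at −2.38 against Control-AMI (SE 0.395, FDR = 0.00224). All Sham and Control-AMI cardiomyocyte libraries came from 1 numbering run and 3 of the 4 EMPA-Pre-AMI libraries from others, and with a term for the run 0 members passed an FDR of 0.1. The deviations of Lama4, Lamb1, Lamc1 and Nid1 from their group means correlated with r between 0.86 and 0.94 over these 13 libraries. Col4a2 was at 73.5 to 86.2, 80.4 to 114 and 54.9 to 108 CPM in the cardiomyocyte groups, with a difference of −0.21 between EMPA-Pre-AMI and Control-AMI (95% interval −0.64 to 0.22). None of the genes for other basement membrane parts, collagen folding or receptors was called in the cardiomyocyte comparisons at an FDR of 0.05, with 14, 11 and 9 genes tested.

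**Figure D4:**
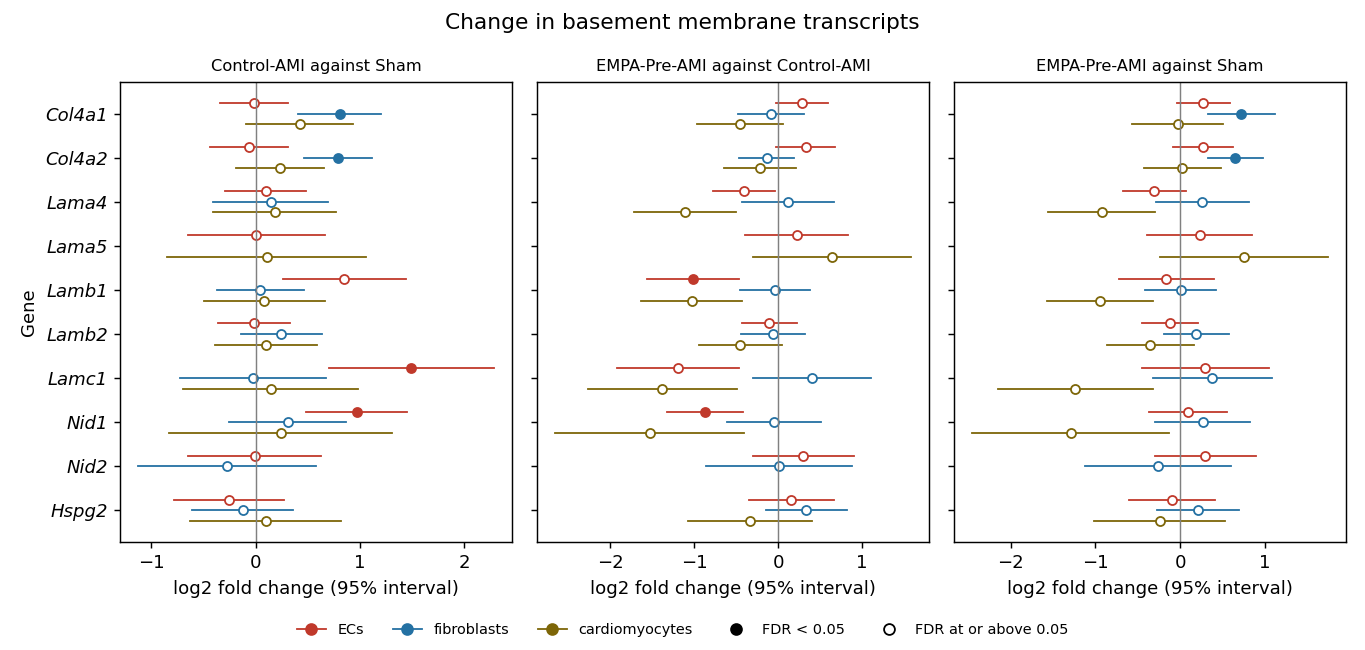
Log2 fold change of each basement membrane gene with its 95% interval in ECs, fibroblasts and cardiomyocytes for the 3 group comparisons, with filled points where the FDR was below 0.05. Filled points were Lamc1 and Nid1 (Control-AMI against Sham) and Lamb1 and Nid1 (EMPA-Pre-AMI against Control-AMI) in ECs, and Col4a1 and Col4a2 against Sham in fibroblasts.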

How the data were processed

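The 38 libraries were 3′ mRNA libraries (QuantSeq FWD). Per the submitters' notes and the study's methods, the authors trimmed reads with cutadapt 2.8, quantified them with Salmon against GRCm39 and deposited estimated counts per gene. These expected counts were rounded to whole numbers here (4.55% of values had a fraction). Gene symbols and coordinates were matched by Ensembl ID to GENCODE vM39 (35407 of 35682 IDs). No column of the table was left unassigned to a sample.

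Each population was fitted by itself with edgeR 4.0.16 in R 4.3.3, the tool the study names (here with filterByExpr by group, TMM, robust glmQLFit, quasi-likelihood test, Benjamini-Hochberg adjustment over all tested genes, FDR below 0.05). Populations were compared, and interactions tested, in a single fit of all 38 libraries. CPM used TMM scaling within a population or over all libraries. An SE is the log2 fold change divided by the square root of F. Intervals use the residual degrees of freedom of the fit, which makes them wider than the test's own. The scripts were tested on simulated counts. Alternatives were DESeq2 1.42.0, RLE factors, other filters (none, or at least 10 counts in every library), mitochondrial genes left out, no robust estimation, fewer groups, terms for replicate number, numbering run or marker level, and each library left out. A floor of 3 counts corresponded to 0.665 to 2.22 CPM before TMM scaling and covers counting error only. Replicate pairs differed by at least 2.03 times the sampling variance, so no library was counted as a repeat of another. Libraries of a population and treatment came from separate pools of 2 hearts, so p-values within a population measure the spread between such pools. The 3 populations were isolated from the same digested hearts, so libraries of different populations can share hearts. The single fit treated them as independent, and p-values of population comparisons and interactions do not account for shared hearts. All 10 members are named, and up to 4 called genes of each related list by smallest FDR. Genes most like Col4a1 or Lama4 are the 5 non-member genes with the highest Pearson r. The members, gene lists and tests were chosen with earlier results of these data known. Promoter sequences are RefSeq's.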

Additional observations from a re-analysis of the deposited data

Results flagged for a closer look

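Of 90 groups of members' levels examined, 7 held a library whose gap to its nearest neighbor exceeded Dixon's critical value for its group size, and chance gives about 1 in 20 groups. In ECs these were Lamc1 in Sham replicate 1 (189.36 CPM, next 106.96), Hspg2 in EMPA-Pre-AMI replicate 2 (346.58 CPM, next 638.85), Nid1 in EMPA-Pre-AMI replicate 2 (330.9 CPM, next 263.92) and Lamb1 in EMPA-Pre-AMI replicate 3 (267.47 CPM, next 205.62). In fibroblasts they were Lamb1 in Sham replicate 2 (973.04 CPM, next 1381.2) and Nid2 in Sham replicate 4 (48.84 CPM, next 20.816), and in cardiomyocytes Lama5 in Sham replicate 1 (3.0977 CPM, next 4.068, on 11 to 17 counts per library). Sham fibroblast replicate 2 is also the library without which the Col4a1 difference missed the threshold.

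The change of Col4a2 in Control-AMI against Sham differed between ECs and fibroblasts in a test of the difference itself (−0.8415 on the log2 scale, edgeR FDR = 0.0393). In fibroblasts all 4 Control-AMI libraries lay above all 4 Sham libraries, whereas in ECs the groups overlapped.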

How the results depend on the processing

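The count of called members stayed within 1.5 times its value, or at 0, under every alternative that kept all libraries for the 3 fibroblast comparisons, for EMPA-Pre-AMI and Sham in ECs, for either infarct group and Sham in cardiomyocytes, for Sham fibroblasts and the other Sham populations, and for the EMPA interaction. Elsewhere the cause of a change was not tested. For ECs in Control-AMI against Sham (2 called), 1 was called with no filter, 1 with only the 2 groups compared, 0 with a term for the numbering run, 0 with a term for the fibroblast markers and, in an alternative chosen after seeing the data, 1 in run 2 alone. For ECs in EMPA-Pre-AMI against Control-AMI (2 called), 1 was called with no filter and 0 with only the 2 groups, with the run term, with the fibroblast or the mural term and in run 2 alone. With the fibroblast term, which cannot be separated from the group in ECs, the Control-AMI differences from Sham were −0.0143 (Lamc1), −0.26 (Nid1) and −0.33 (Lamb1). The EMPA-Pre-AMI differences from Control-AMI were then 0.24 (Lamb1), 0.43 (Nid1) and 0.39 (Lamc1), and none was called. For cardiomyocytes in EMPA-Pre-AMI against Control-AMI (0 called), 4 were called by DESeq2, 2 without a filter and 2 under the stricter filter of 10 counts or more. At an FDR of 0.1 (4 members, a threshold added after seeing the data), 2 remained with no filter and 0 with the run term or only the 2 groups. Sham ECs against Sham cardiomyocytes (8 called) gave 4 with the run term, Col4a1, Col4a2 and Hspg2 as before and Lama4 newly called, and Nid1, not called in either fit, turned from −0.89 to 0.21. These Sham groups shared no numbering run, so the run term cannot separate run from population there. The interaction of Control-AMI against Sham (1 called) gave 2 with DESeq2 and with only EC and fibroblast libraries, and 0 without a filter, under the stricter filter and with the run term.

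Leaving out 1 library at a time gave 1 to 3 called members for ECs in Control-AMI against Sham, 0 to 3 for EMPA-Pre-AMI and Control-AMI and 0 for EMPA-Pre-AMI and Sham. In fibroblasts the same 3 comparisons, in the same order, gave 1 to 2, 0 and 0 to 2, and in cardiomyocytes 0, 0 to 4 (0 to 5 at an FDR of 0.1) and 0 to 4. The Sham comparisons gave 5 to 7 (ECs and fibroblasts), 7 to 9 (ECs and cardiomyocytes) and 8 (fibroblasts and cardiomyocytes), and the interactions 0 to 2 and 0 to 1.

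Correlations did not settle whether replicate numbers pair libraries of different treatments within a population. For same-number pairs the correlations of deviations were −0.0642 to 0.207 in ECs, −0.113 to 0.482 in fibroblasts and −0.0903 to 0.174 in cardiomyocytes. Other pairs gave −0.228 to 0.165, −0.515 to 0.405 and −0.293 to 0.284 in the same order. Pairing of populations from the same hearts was not examined. Of 12 same-number pairs in each population, 4 in ECs, 6 in fibroblasts and 3 in cardiomyocytes had deviations correlated above 0.1, and 5 of 13, 5 of 12 and 3 of 13 libraries correlated best with their own number. With the replicate block, 0 members were called in ECs for EMPA-Pre-AMI against Control-AMI, 0 in the interaction of Control-AMI against Sham and 0 at an FDR of 0.1 in cardiomyocytes, and the block moved no other count of members by over 1.5 times. Depth limits Lama5 in fibroblasts and Nid2 in cardiomyocytes, which were at 1 to 12 and 0 to 13 counts per library.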
